A study of Mus musculus with 4 samples.

Results

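The 10 interferon-inducible GTPase genes described here were measured in mouse retina after inhibition of miR-124-3p: 7 guanylate-binding protein (GBP) genes, Gbp2, Gbp3, Gbp4, Gbp5, Gbp6, Gbp7 and Gbp9, and 3 immunity-related GTPase (IRG) genes, Iigp1, Irgm1 and Igtp. They were selected by name from the 48897 genes of the deposited table, with their higher values in the anti-miR-124 group already known, so their differences between the groups are given as a description and carry no test. All 10 had more counts in each anti-miR-124 library than in either NC library. Their summed level was 4.10-fold and 5.85-fold that of the NC library in the 2 pairs of libraries, from a low base of 9.06 and 12.7 TPM, a level scaled to gene length and library size.

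The retinas came from C57BL/6 mice (C57BL/6J in the study's methods), of wild type, at postnatal day 9. On postnatal day 3, left eyes were injected in the vitreous with 0.6 nmol of an antagomir in 1 μl, a chemically modified oligonucleotide that binds mature miR-124-3p (anti-miR-124 group), and right eyes with the same amount of a scrambled sequence (NC group). Every NC library is therefore from right eyes and every anti-miR-124 library from left eyes, and the side cannot be told apart from the oligonucleotide. All eyes were injected, and no uninjected eye was sequenced among these samples. There were 2 libraries per group, and each group consisted of 12 to 15 mixed retinas from several litters, so that the spread between libraries is not that between single animals. The table gives 1 left-eye and 1 right-eye library the same number, and such libraries are set side by side as pair A (libraries NC A and anti-miR-124 A) and pair B (NC B and anti-miR-124 B). Which pair is replicate 1, and whether the eyes behind 1 number are those of the same mice, is not stated. Where 2 values are given for a group, pair A comes first.

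Between 16317239 and 18726963 reads were counted per library. Library NC A stands apart, with 6.30% of its TPM in 18 lens genes against at most 0.0177% in the other libraries. Retinal identity was checked by 8 markers of retinal neurons, whose summed level was between 3147 and 3520 TPM. With edgeR's quasi-likelihood test, no gene of the 17766 tested had an adjusted p-value under 0.05 (0%), while the unadjusted p-value was under 0.05 for 694 (3.91%). Among the latter, 396 (2.23% of the genes tested) had the higher level in the anti-miR-124 group and 298 (1.68%) the lower. Fitted with the number as a replicate block, the unadjusted p-value fell under 0.05 for 376 genes, 227 of them higher (1.28%), and 0 passed the adjusted threshold. The median log2 fold change of all genes tested was 0.00066.

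Guanylate-binding proteins and immunity-related GTPases are GTP-hydrolysing proteins that cells make in response to interferons. Interferons act through receptors and JAK kinases on STAT and IRF transcription factors, which bind 2 kinds of short DNA element, the interferon-stimulated response element (ISRE) and the gamma-activated site (GAS). The GBPs gather on membranes around intracellular bacteria and parasites, and several carry a lipid tail that anchors them. The IRG proteins fall into effectors such as Iigp1 (Irga6), which load onto the vacuole of a parasite, and regulators such as Irgm1 and Igtp (Irgm3), which sit on the cell's own membranes and keep the effectors inactive there. In healthy tissue without infection most of these genes are expressed at low levels.

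The promoters are shown first, because these genes are known as targets of the ISRE and the GAS. A promoter of 300 bases (250 before to 50 after the start site, RefSeq, GRCm38.p6) was found for 6 of the 10 genes. These were Gbp2, Gbp3, Gbp5, Gbp7, Irgm1 and Igtp. None was found for Gbp4, Gbp6 and Gbp9. Iigp1 was left out of the promoter search, so its promoter was not examined. Gbp3 has a second promoter in the table (chr3:142560106-142560405), in which neither core searched was found. The ISRE core was searched as GAAANNGAAA and the GAS core as TTCNNNGAA, on both strands, and the GAS core reads the same on either strand. Of these 6 genes, all had the ISRE core in at least 1 promoter, against 3.99% of the 27025 genes whose promoters were searched. The GAS core was present in 3 of the 6 genes (Gbp5, Gbp7 and Igtp), against 9.55% of genes, and both cores in those 3, against 0.614%. Positions are counted from the start site, with negative numbers before it. Bases -110 to -11 of the first promoter listed are given for the 6 genes and for Irgm2, the neighbour of Igtp, 5′ to 3′ on the gene's strand, with the matches to either core in capitals.
Gbp2 (chr3:142620553-142620652, plus strand): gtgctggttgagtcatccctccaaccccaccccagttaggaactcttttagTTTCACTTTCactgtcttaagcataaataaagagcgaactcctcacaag
Gbp3 (chr3:142559934-142560033, plus strand): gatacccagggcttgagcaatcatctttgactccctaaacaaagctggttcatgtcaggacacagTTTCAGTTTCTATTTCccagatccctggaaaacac
Gbp5 (chr3:142496824-142496923, plus strand): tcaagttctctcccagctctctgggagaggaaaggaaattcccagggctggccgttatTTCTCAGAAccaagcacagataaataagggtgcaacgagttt
Gbp7 (chr3:142530226-142530325, plus strand): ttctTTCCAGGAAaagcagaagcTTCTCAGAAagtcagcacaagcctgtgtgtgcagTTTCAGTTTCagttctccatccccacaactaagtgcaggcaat
Irgm1 (chr11:48871431-48871530, minus strand): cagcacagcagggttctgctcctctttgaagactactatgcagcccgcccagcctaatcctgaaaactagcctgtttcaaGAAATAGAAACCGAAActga
Igtp (chr11:58199446-58199545, plus strand): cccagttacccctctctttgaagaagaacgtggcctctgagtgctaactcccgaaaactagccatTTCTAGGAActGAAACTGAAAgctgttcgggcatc
Irgm2 (chr11:58214867-58214966, plus strand): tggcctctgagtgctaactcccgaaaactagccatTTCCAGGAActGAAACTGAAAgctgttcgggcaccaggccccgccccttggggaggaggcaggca
The ISRE core of Gbp5 begins farther from the start site, at -165, and is shown with 8 bases on each side.
Gbp5, upstream match (chr3:142496761-142496786, plus strand): ttgtgtagTTTCAATTTCagtttaga
Gbp5 also held a further GAS core, at -245, outside the printed window.

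In the 4 GBP promoters the ISRE core was on the strand opposite to the gene, and in Irgm1 and Igtp on the gene's strand. Gbp3 and Irgm1 each held 2 overlapping ISRE matches, and no GAS core overlapped an ISRE core. The GAS and ISRE cores of Igtp began at -45 and -34, and those of Irgm2 at -75 and -64. Over the 37 bases from 8 before the GAS core to 8 after the ISRE core, Igtp and Irgm2 differed at 1 base, T4C, counted from 1 at the first base of the GAS core with the base of Igtp first. The start sites of Gbp3 and Irgm1 in that table lie inside the spans that the count table gives, so that their printed bases reach into those spans. A match is a description of the letters and not a measured binding site.

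**Figure D1:**
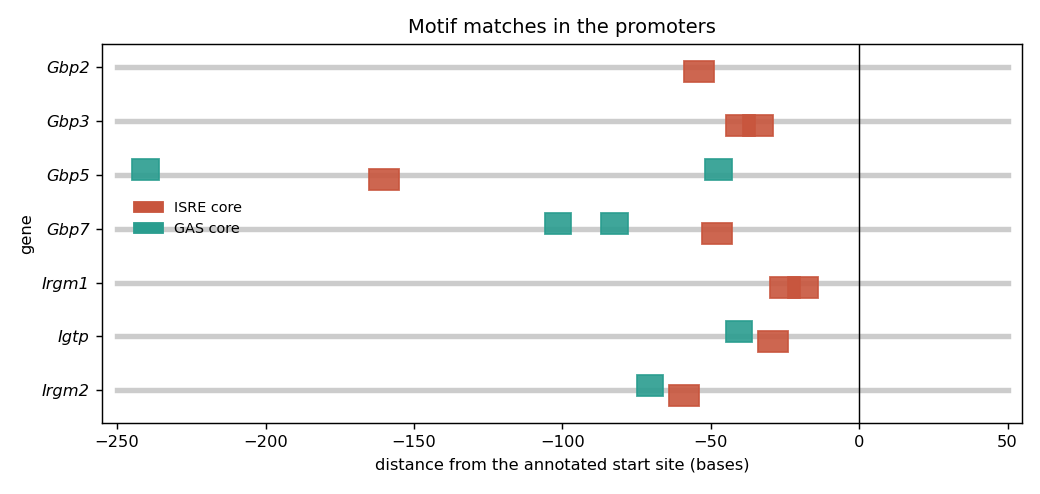
Positions of the ISRE and GAS cores in the first listed promoter of 6 GTPase genes and of Irgm2, with the distance from the annotated start site in bases on the horizontal axis and 1 gene per row. Grey bars span the 300 bases searched. Each promoter drawn has an ISRE core, which begins at -64 or nearer to the start site in all but Gbp5, where it begins at -165.

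The 2 IRG regulators were the members with the highest levels in every library. For Irgm1 (GRCm38, as for all positions; chr11:48865245-48871454, minus strand), whose product acts on the cell's own membranes and in autophagy, 44 and 63 counts were found in the NC group, and 138 and 322 in the anti-miR-124 group. These are levels of 3.19 and 4.46 TPM in the NC group and 10.2 and 21.8 TPM in the anti-miR-124 group. The lowest anti-miR-124 library was above the highest NC library, and Irgm1 alone made up between 27.4% and 35.3% of the summed TPM of the 10 genes. Within the pairs, the normalised level in the anti-miR-124 library (CPM, counts scaled to library size) was 2.96-fold (95% exact interval 2.09 to 4.25) and 4.90-fold (3.73 to 6.52) that of the NC library. The intervals are exact binomial (Clopper-Pearson) intervals on the 2 counts of a pair, which cover counting error only. The fitted log2 fold change over the 4 libraries was 2.01 (standard error 0.38).

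Igtp (chr11:58199556-58207592, plus strand), the other regulator, had 19 and 33 counts in the NC group against 68 and 137 in the anti-miR-124 group. Its levels were 1.77 and 3.00 TPM in the NC group and 6.44 and 11.9 TPM in the anti-miR-124 group, second to Irgm1 in each of the 4 libraries. Its folds in the pairs were close to each other, at 3.38 (2.01 to 5.95) and 3.98 (2.70 to 6.01), and the fitted log2 fold change was 1.89 (standard error 0.40). The ranges of the 2 regulators overlapped in the anti-miR-124 group, from 6.44 to 11.9 and from 10.2 to 21.8 TPM, and not in the NC group.

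Iigp1, an effector IRG on chromosome 18, was the member closest to absence in the NC group. No count was found in library NC A and 3 counts in that of pair B, while both anti-miR-124 libraries held 51 counts, or 2.83 and 2.60 TPM. With a floor of 3 counts per library, the level was at least 16.0-fold higher in library anti-miR-124 A, and the exact 95% interval of that ratio began at 12.6. In pair B the ratio was 16.3 (5.27 to 81.6), from 3 counts in the NC library. The fitted log2 fold change of 4.92 (standard error 0.69) depends on how the 0 is treated, and no finite estimate can be had without library NC B, since no count then remains in the NC group.

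The GBP genes lie in 2 clusters, and 4 of the 7 are on chromosome 3. Gbp7 (chr3:142530336-142550151, plus strand), described in the assembly of the phagocyte oxidase, had the highest level of the GBPs in the NC group. It had 47 and 62 counts there, and 123 and 254 in the anti-miR-124 group. The levels of 1.58 and 2.03 TPM against 4.19 and 7.95 TPM gave the smallest fitted difference among the 9 genes tested, a log2 fold change of 1.70 (standard error 0.33), with folds of 2.47 (1.75 to 3.53) and 3.92 (2.96 to 5.27) in the pairs.

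Gbp3 (chr3:142560016-142573213, plus strand), its neighbour, was lower than Gbp7 in the NC group and higher in the anti-miR-124 group. It had 10 and 14 counts in the NC group against 82 and 184 in the anti-miR-124 group. Its level of 0.589 and 0.805 TPM in the NC group was below that of Gbp7 in both libraries, and its level of 4.91 and 10.1 TPM in the anti-miR-124 group was above that of Gbp7 in both, although the ranges of the 2 genes overlapped in the latter group. The folds of Gbp3 were 7.74 (4.0 to 16.7) and 12.6 (7.31 to 23.5), and its intervals lie above those of Gbp7 in each pair. The fitted log2 fold change was 3.37 (standard error 0.45).

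Gbp2 (chr3:142620663-142638008, plus strand), one of the lipid-anchored members that is recruited to parasite vacuoles, had 7 and 5 counts in the NC libraries. In the anti-miR-124 libraries it had 31 and 80 counts, or 2.42 and 5.73 TPM against 0.537 and 0.375 TPM in the NC group. Its folds differed most in size between the pairs among the members with counts in all 4 libraries, at 4.18 (1.80 to 11.2) in pair A and 15.3 (6.30 to 48.5) in pair B, but the intervals overlapped. The fitted log2 fold change was 3.08 (standard error 0.58).

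Gbp5 (chr3:142496934-142522344, plus strand), known for its part in inflammasome activation, had 1 and 5 counts in the NC group against 10 and 31 in the anti-miR-124 group. Its level stayed under 2 TPM in all libraries, at 1.81 TPM in the highest. The ratio of pair A, 9.43, rests on 1 count in the NC library and has an interval of 1.34 to 409. In pair B the fold was 5.94 (2.29 to 19.6), and the fitted log2 fold change was 2.64 (standard error 0.82), the largest error of the 9.

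The other 3 GBP genes are on the minus strand of chromosome 5. Gbp6 (chr5:105270702-105295871) had 17 and 20 counts in the NC group against 85 and 194 in the anti-miR-124 group, or 0.657 and 0.755 TPM against 3.34 and 6.99 TPM. Its folds were 4.72 (2.78 to 8.47) and 9.29 (5.85 to 15.6), and its fitted log2 fold change 2.81 (standard error 0.42). Gbp6 is the member that shares most of its sequence with another gene model. Of the 50-base stretches in its longest coding transcript (GENCODE M21), 90.2% also occur in Gm43302, which has no line in the count table. How reads from the shared stretches were counted is not stated. The share was at most 12.8% for the other 9 members.

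Gbp9 (chr5:105076464-105110352) had 17 and 20 counts in the NC libraries, the same counts as Gbp6, with 55 and 144 in the anti-miR-124 group. Its level was 0.570 and 0.655 TPM in the NC group and 1.87 and 4.50 TPM in the anti-miR-124 group. The folds of 3.05 (1.75 to 5.61) and 6.90 (4.30 to 11.6) were below those of Gbp6 in both pairs, with overlapping intervals. The fitted log2 fold change was 2.32 (standard error 0.47).

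Gbp4 (chr5:105115767-105139586) had the fewest counts of the 10 over all libraries, 3 in each NC library, with 9 and 19 in the anti-miR-124 group. It did not pass the filter on low counts and was not tested. Its level was 0.108 and 0.105 TPM in the NC group and 0.329 and 0.638 TPM in the anti-miR-124 group. The fold of 2.83 in pair A, from 3 counts in the NC library, was within counting error of no difference (0.706 to 16.3), and that of pair B was 6.07 (1.79 to 32.0).

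**Figure D2:**
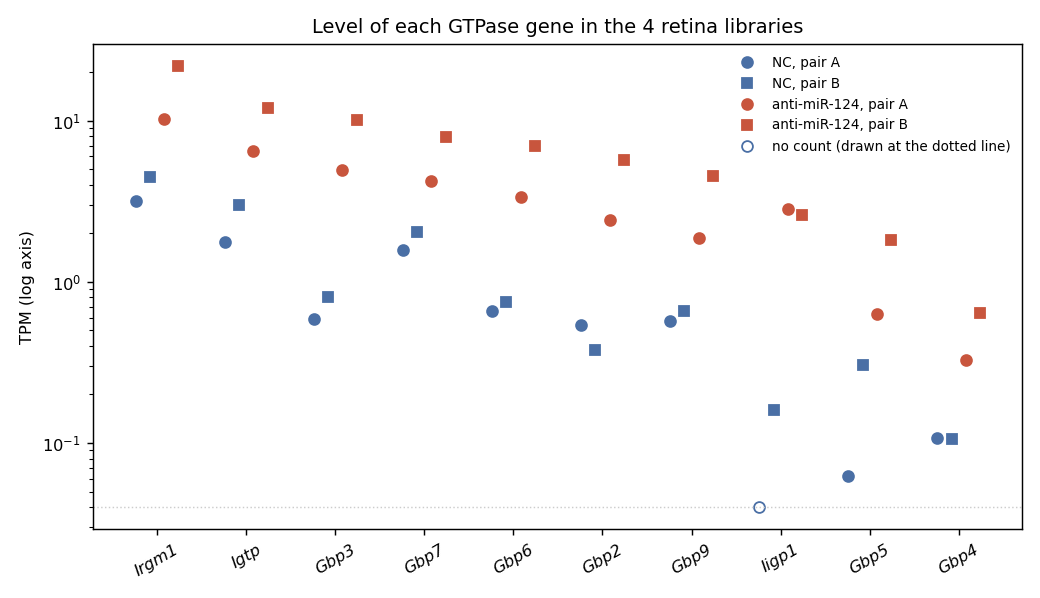
Level of each of the 10 GTPase genes in TPM on a log axis, ordered by the mean of the anti-miR-124 group, with 1 point per library (circles, pair A; squares, pair B; blue, NC; red, anti-miR-124). Both red points lie above both blue points for every gene, and the open circle on the dotted line marks library NC A, which had no count of Iigp1.

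In order of mean level, the NC group read Irgm1 (3.83 ± 0.90 TPM, SD, n = 2), Igtp (2.39 ± 0.87), Gbp7 (1.80 ± 0.32), Gbp6, Gbp3, Gbp9, Gbp2, Gbp5, Gbp4 and Iigp1. Gbp6 (0.706 ± 0.069 TPM), Gbp3 (0.697 ± 0.15) and Gbp9 (0.612 ± 0.060) did not differ beyond their spread, nor did Igtp from Gbp7, Gbp5 from Gbp4 or Gbp4 from Iigp1, while the libraries of the other neighbours did not overlap. The anti-miR-124 group read Irgm1 (16.0 ± 8.2 TPM, SD, n = 2), Igtp (9.18 ± 3.9), Gbp3 (7.51 ± 3.7), Gbp7 (6.07 ± 2.7), Gbp6 (5.17 ± 2.6), Gbp2 (4.08 ± 2.3), Gbp9 (3.19 ± 1.9), Iigp1 (2.71 ± 0.16), Gbp5 (1.22 ± 0.83) and Gbp4 (0.484 ± 0.22). Neighbours in that order overlapped in their 2 libraries, except Iigp1 and Gbp5.

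In both pairs all 10 genes had the higher level in the anti-miR-124 library, as did 4044 of the 17766 genes tested (22.8%), and in all 10 the anti-miR-124 libraries both lay above both NC libraries, against 2930 genes (16.5%). Since the genes were selected on this contrast, these counts describe the selection. Of the 9 that passed the filter, Gbp2, Gbp5 and Iigp1 passed only through the anti-miR-124 libraries. The 10 had median log2 ratios of 1.86 (pair A) and 2.61 (pair B). In pair A, Iigp1 was above that median at the lower bound of its exact interval too, 12.6-fold. In pair B its lower bound, 5.27-fold, was below the median. The median fitted log2 fold change of the 9 tested was 2.64, and it was 1.70 without library anti-miR-124 B.

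The differences of most members were larger in pair B. Between the 2 anti-miR-124 libraries, the normalised level (CPM) of 9 of the 10 genes was 1.82-fold to 2.81-fold higher in pair B than in pair A. Iigp1 was the exception, which was noticed after the values were seen, with a ratio of 0.906 (95% exact interval 0.602 to 1.36). Its interval lay below those of Gbp2, Gbp3, Gbp6, Gbp7, Gbp9 and Irgm1, and overlapped those of Gbp4, Gbp5 and Igtp. The ratio to the NC library was larger in pair B than in pair A for 8 of the 10, all but Gbp5 and Iigp1. No share over all genes tested was computed for either count, so both are a description. All genes tested had a median log2 ratio of -0.0095 (pair A) and 0.0031 (pair B). For the microglia markers described below the median was also larger in pair B (-0.13 and 1.72). For the red blood cell genes it was smaller (1.86 and -0.68). Whether the difference belongs to the members or to library anti-miR-124 B was not tested.

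**Figure D3:**
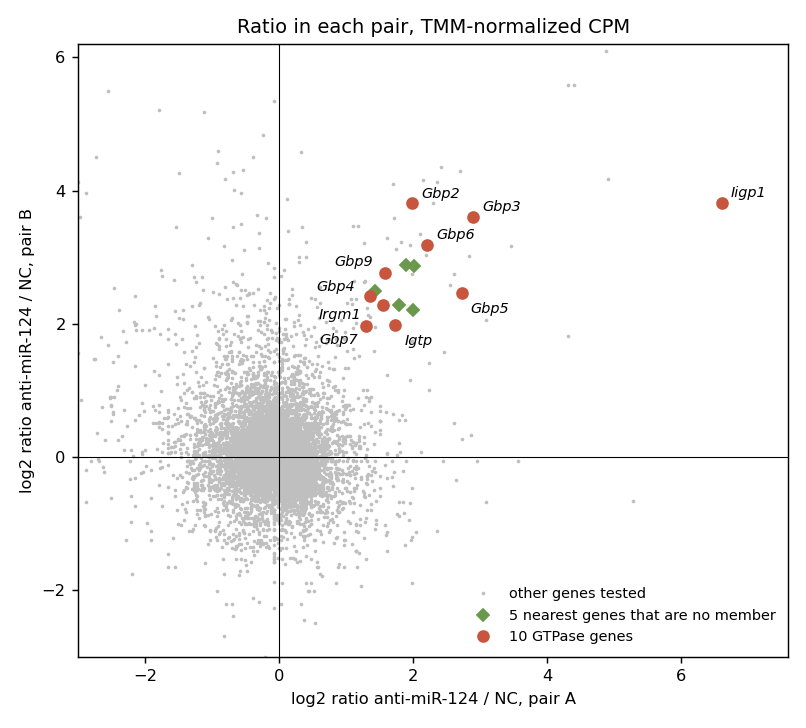
Log2 ratio of the anti-miR-124 to the NC library in pair A (horizontal axis) and pair B (vertical axis), from normalised CPM with 0.5 added to each count, for the 10 GTPase genes (red), the 5 genes nearest to their median (green) and the other genes tested (grey). All 10 lie in the upper right quadrant, Iigp1 apart from the rest through its ratio in pair A, and 45 genes lie beyond the axes.

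The genes whose pattern was most like that of the members were sought by the distance from the members' median in these 2 log2 ratios, among 16028 genes with a mean CPM of at least 1. The 5 nearest were Rn7sk, a small nuclear RNA that regulates transcription elongation, Uba7, the activating enzyme for the interferon-induced modifier ISG15, Xaf1, an interferon-induced gene tied to cell death, Ifit3b, an interferon-induced antiviral gene, and Rnf213, a large ubiquitin ligase. Uba7 had 5 and 6 counts in the NC group against 23 and 49 in the anti-miR-124 group. Rnf213 had the most counts of the 5, with 372 and 423 in the NC group against 1066 and 2487 in the anti-miR-124 group. Rn7sk, Uba7 and Ifit3b passed the filter on low counts only through the anti-miR-124 libraries. Likeness was measured over 2 pairs only.

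The clusters contained further GTPase genes and ordinary neighbours. On chromosome 3, Gbp2b, which lies between Gbp3 and Gbp2, had no count in any library, so that a count of 0 allows up to 3 counts in each. On chromosome 5, Gbp10 lies between Gbp4 and Gbp6, while Gbp8 and Gbp11 lie at the ends of the cluster. Each of them had at most 4 counts in any library. Gbp10 shares 82.5% of its 50-base stretches with other genes, and 79.2% with Gm43302, the model that also covers most of Gbp6. On chromosome 11, Irgm2, the third IRG regulator, had 17 and 27 counts in the NC group against 47 and 123 for the anti-miR-124 group, with a log2 fold change of 1.86 (standard error 0.48, edgeR adjusted p = 0.989). Igtp shares 12.3% of its 50-base stretches with Irgm2, which stands 3′ of it on the same strand.

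On each side of the 4 clusters, the nearest 2 protein-coding genes that were tested and had a mean CPM of at least 1 were taken. These 16 had log2 fold changes from -0.30 to 0.23. Their log2 ratios in single pairs were between -0.94 and 0.44, below every ratio of the members. One of the 16, Zfp672, a zinc finger gene named after its values were seen, had an unadjusted p-value under 0.05 and was lower in the anti-miR-124 group (background 1.68%). On the opposite strand, Mir6381 overlaps Gbp2 and Gm40158 overlaps Gbp3, and neither had a count.

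**Figure D4:**
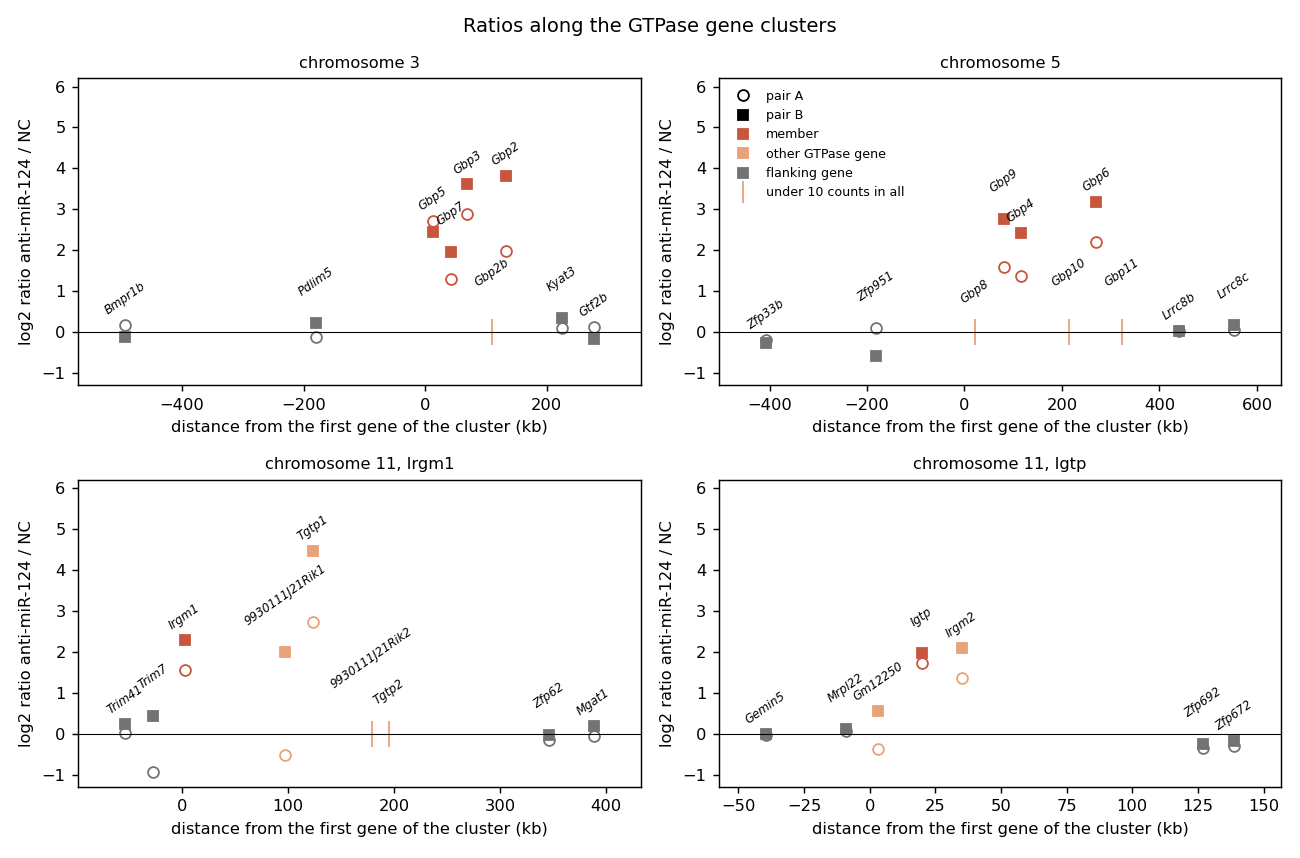
Log2 ratio of the anti-miR-124 to the NC library (vertical axis; open circles, pair A; filled squares, pair B) against the distance in kb from the first gene of each GTPase gene cluster. Members (red) have ratios of at least 1.29, the flanking genes (grey) lie between -0.94 and 0.44, and ticks mark GTPase genes with under 10 counts in all libraries together.

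Of 18 other interferon-inducible GTPase genes, 3 passed the filter on low counts. All 3 were higher in both pairs (background 22.8%) and their median log2 fold change was 1.86, or 1.10 without library anti-miR-124 B. Besides Irgm2 these were Mx2, of the dynamin-like antiviral GTPases and listed as a transcribed pseudogene, and Gm8995, of the very large inducible GTPases. Mx2 passed the filter only through the anti-miR-124 libraries, and had 1 and 5 counts in the NC group against 17 and 51 in the anti-miR-124 group (log2 fold change 3.36, standard error 0.79, edgeR adjusted p = 0.989). Irgm2 and Mx2, both higher, had an unadjusted p-value under 0.05 without the replicate block (background 2.23%) and with it (background 1.28%). Since Mx2 entered the test only through the group where it was higher, its direction and its p-value are a description. Gm8995 had 13 and 18 counts against 18 and 34, a log2 fold change of 0.66 (standard error 0.42). Among the 15 that were not tested, the effector IRG genes Tgtp1 and Tgtp2 had no count in the NC libraries. In the anti-miR-124 group, Tgtp1 had 3 and 11 counts and Tgtp2 had 6 and 1, but 89.4% of the 50-base stretches of Tgtp1 also occur in Tgtp2. Of all 18, 11 were higher in both pairs, 5 of them with no count in either NC library, and 2 had no count at all. The background of 22.8% is over genes tested, and no share was computed for genes under the filter, so this count is a description. Gbp8 had 2 and 0 counts against 0 and 3, Gm12250 had 5 and 7 against 4 and 11, and 9930111J21Rik1 had 7 and 3 against 5 and 14, so these were lower in pair A and higher in pair B. Irgq, a relative of the IRG genes that interferon does not induce, was found at 49.4 to 63.5 TPM, with 1604 and 1884 counts in the NC group against 1801 and 2210 in the anti-miR-124 group (log2 fold change 0.13, standard error 0.08).

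The interferon pathway was described with 24 genes by role, from ligand to inhibitor. Transcripts of the 4 ligand genes on the list were hardly found, and other interferon genes were not examined. Ifng had 1 count in library NC A and none elsewhere, and Ifnb1, Ifna4 and Ifnl3 had none in any library. The 4 receptor genes had log2 fold changes from -0.11 to 0.13, and the 3 JAK kinases from 0.0010 to 0.16, and none of the 7 had an unadjusted p-value under 0.05. Ifngr1 was found at 463 and 516 counts in the NC group against 533 and 570 in the anti-miR-124 group, and Jak2 at 1468 and 1689 against 1604 and 1713.

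The other roles are the transcription factors and the inhibitors of the pathway. Of the 19 genes tested on the list, 12 were higher and 2 lower in both pairs (background 22.8% and 24%), and 5 had an unadjusted p-value under 0.05, all higher (background 2.23%). None passed the adjusted threshold (background 0%). The median log2 fold change of the list was 0.33, and it dropped to 0.13 with library NC B left out and to 0.12 with its anti-miR-124 library left out. Irf7, the factor that amplifies interferon production, had 15 and 11 counts in the NC group against 72 and 213 in the anti-miR-124 libraries (log2 fold change 3.34, standard error 0.56, edgeR adjusted p = 0.695). Irf9, the DNA-binding part of the complex that acts on the ISRE, had 137 and 131 counts against 287 and 501, a log2 fold change of 1.46 (standard error 0.23). Its partner Stat2 differed less, with 425 and 537 counts against 550 and 727 and a log2 fold change of 0.33 (standard error 0.12). Usp18, which shuts off the type I receptor and removes ISG15, had 3 and 13 counts against 111 and 253. Its log2 fold change of 4.40 (standard error 0.59, edgeR adjusted p = 0.487) was the largest of the list. Among the other inhibitors, Socs1 was higher in both pairs (log2 fold change 0.95, standard error 0.42). Ptpn2 was lower in both pairs (log2 fold change -0.15, standard error 0.07), and Socs3 had log2 ratios of -1.21 in pair A and 1.71 in pair B. Among the other factors, Irf1 (log2 fold change 0.55, standard error 0.31) and Irf8 (0.46, standard error 0.28) were higher in both pairs. Irf2 was lower in both pairs (log2 fold change -0.10, standard error 0.09), and Nlrc5 had log2 ratios of -1.19 and 2.31. With the replicate block, 5 genes of the list again had an unadjusted p-value under 0.05, all higher (background 1.28%). Irf7, Irf9, Stat2 and Usp18 were among them.

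The GBP and IRG proteins act together with other proteins. Of 29 partner genes, for the lipidation of autophagy proteins, prenylation, ubiquitin, the inflammasome and the phagocyte oxidase, 26 were tested. Of these, 10 were higher and 4 lower in both pairs (background 22.8% and 24%), and the median log2 fold change was 0.05. Of the 26, 5 had an unadjusted p-value under 0.05, all higher (background 2.23%), and the other 21 had log2 fold changes from -0.13 to 0.84. With the replicate block, 2 of the 5 had such a p-value, Rnf213 and Trim21, both higher (background 1.28%). Rnf213 stood at a log2 fold change of 2.06 (standard error 0.32, edgeR adjusted p = 0.671). Trim21, an antibody receptor and ubiquitin ligase in the cytosol, had 20 and 26 counts in the NC group against 46 and 105 in the anti-miR-124 group (log2 fold change 1.62, standard error 0.42). For Arhgdia, the log2 fold change was 0.27 (standard error 0.10).

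The 2 membrane subunits of the phagocyte oxidase differed between the groups mainly in pair B, with log2 ratios of -1.13 for Cybb and 0.02 for Cyba in pair A and of 5.18 and 2.71 in pair B. Cybb had 15 and 7 counts in the NC group against 7 and 283 in the anti-miR-124 group. Cyba had 51 and 25 counts against 55 and 174. Casp1, the inflammasome protease, was not tested and had 3 and 3 counts against 2 and 26. All 10 members had log2 ratios of at least 1.29 in both pairs.

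Markers of immune cells were set beside these values, since microglia and blood-derived cells can express the same genes. In bulk tissue, a change in the number of cells of a type and a change in RNA per cell cannot be told apart. All 15 microglia markers were tested, 5 were higher in both pairs (background 22.8%), and their median log2 fold change was 0.89, or 0.096 when library anti-miR-124 B was left out. Csf1r, C1qc and Ctss had an unadjusted p-value under 0.05, all higher (background 2.23%). With the replicate block 0 of the 15 did (background 1.28% higher). In pair A, the summed level of the 15 markers was 280 TPM under the scrambled sequence and 274 TPM under the antagomir, a ratio of 0.980, while that of the 10 GTPase genes was 4.10-fold higher. In pair B, the markers went from 227 to 713 TPM, a ratio of 3.13, and the GTPase genes were 5.85-fold higher. The part of the microglia in the values of pair B was not tested.

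Of 8 markers of T and NK cells, Cd3e, Cd3d and Prf1 had no count in any library, and the summed level of the 8 was between 5.12 and 7.76 TPM. The 2 that were tested were higher in both pairs, Cd8a with 63 and 65 counts against 68 and 98, and Cd4 with 36 and 21 against 43 and 42. Of 7 markers of monocytes and neutrophils, Ly6c2, Elane and Ly6g had no count in any library, while Ccr2 had 2 counts in NC B, 25 in anti-miR-124 B and none in pair A. Itgal, the 1 marker of this list that was tested, was higher in both pairs, with 13 and 22 counts against 23 and 52 (log2 fold change 1.01, standard error 0.46). The summed level of those 7 was between 2.01 and 2.83 TPM in the NC group and was 2.64 and 4.93 TPM in the anti-miR-124 group. The 5 genes of red blood cells went opposite ways in the pairs, from 404 to 1592 TPM in pair A and from 745 to 455 TPM in pair B, and their part in the result was not tested. Endothelial cells, Müller glia, rods and other retinal neurons had median log2 fold changes between -0.06 and 0.09. In those lists Gnat1, the rod transducin (-0.38, standard error 0.08, lower), Nrl, a rod transcription factor (0.16, standard error 0.04, higher), and Lhx1, a horizontal cell factor (0.44, standard error 0.17, higher), had an unadjusted p-value under 0.05 (background 1.68% lower and 2.23% higher). The 16 lens genes tested also did, each with a lower fitted level in the anti-miR-124 group. Only 4 of these were lower in both pairs, and their median log2 ratio was -8.60 in pair A, which holds library NC A, and 0.17 in pair B. Without the 18 lens genes the median of the members was 2.65.

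**Figure D5:**
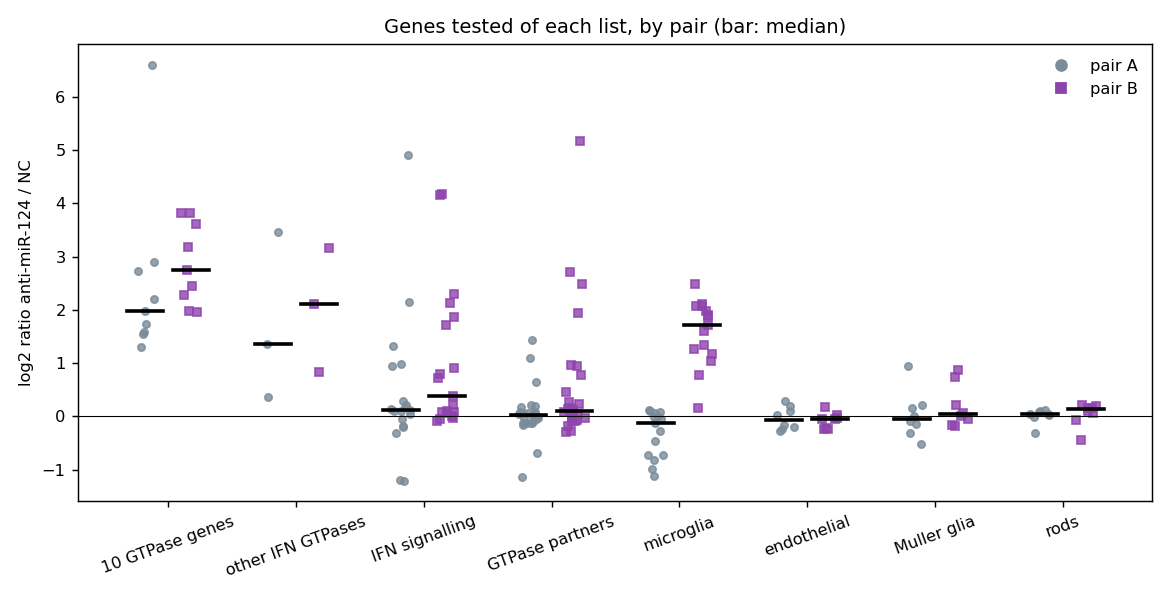
Log2 ratio of the anti-miR-124 to the NC library for the genes tested of each list (circles, pair A; squares, pair B), with the median of each pair as a bar. The GTPase genes lie above 1 in both pairs, whereas the microglia markers have a median of -0.13 in pair A and of 1.72 in pair B.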

How the data were processed

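The deposited table gives, for 48897 genes, the read counts that the authors obtained per gene in each of 4 libraries, without normalization, and the gene lengths and positions. The 4 columns of RPKM values that the authors deposited beside them were not used. HISAT2 and mm9 are named in the submitters' processing notes, but the gene positions match GRCm38 (7 of 10 members had the same span in RefSeq, GRCm38.p6). The counting tool is not given in the sources used here, nor is whether strand was used in counting.

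TPM was computed from counts and lengths. edgeR 4.0.16 in R 4.3.3 was used with the quasi-likelihood test without covariates, TMM scaling, the filter on low counts of filterByExpr and Benjamini-Hochberg adjustment with a threshold of 0.05, on all genes that passed. The procedure was tested on simulated data. Ratios in pairs had 0.5 added to each count. DESeq2 1.42.0, other scalings and filters, a replicate block and leaving out each library were alternatives. Libraries were grouped by the eye named in the table. With 2 libraries per group, p-values measure the spread between pooled libraries, and the counting error is large for the members with few counts.

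The members, the gene lists and the tests were chosen with earlier results of these data known. Named genes were all members, list genes with an unadjusted p-value under 0.05 (lens genes as a count) or otherwise the most abundant, and the 5 nearest genes. Others, such as the ligands, Ifngr1, Jak2, Casp1, Ccr2, Itgal, Cd4, Cd8a, Ptpn2, Socs1, Socs3, Irf1, Irf2, Irf8, Nlrc5 and the genes within the clusters, were named after their values were seen. The values of 1 gene of the signalling list are not reported here. Protein sequences and the miR-124-3p sequence were not used here, and Python 3.11.15 was used for positions and promoters.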

Additional observations from a re-analysis of the deposited data

How the results depend on the processing

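All 10 members stayed higher in both pairs, with both anti-miR-124 libraries above both NC libraries, under DESeq2's size factors, upper quartile scaling, total counts, TPM and other filters, and the second count also held without each library in turn; the count over both pairs could not be given with a library left out. The median log2 fold change of the members tested was between 1.70 and 3.18 with 1 library left out. For the other GTPases it was between 1.10 and 2.34, for the signalling list between 0.12 and 0.46, for the partners between 0.0016 and 0.083, and for the microglia markers between 0.096 and 1.40. The cause of these shifts was not tested.

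The number of genes past the adjusted threshold was 379 without the filter on low counts, 36 with DESeq2, and between 0 and 235 with 1 library left out, against 0. The number at an unadjusted p-value under 0.05 was 1577 without the filter, 308 with DESeq2, and between 287 and 1804 with 1 library left out, against 694. A lone library is assumed there to vary like the other group. Same-numbered libraries had a correlation of -0.16 of their deviations from the group means over 17766 genes, and no source states that a number marks the same mice, so the numbers were not taken to pair them. With the replicate block 376 genes had an unadjusted p-value under 0.05, the median of the members was 2.69, and Arhgdia, Cyba, Cybb, Csf1r, C1qc, Ctss, Nrl and 8 of the 16 lens genes no longer had one, while Itgal did. With the numbers crossed in the block, an alternative added after seeing the data, as was leaving out the lens genes, 160 genes passed the adjusted threshold and 1306 had an unadjusted p-value under 0.05. Without the filter, Gbp4 was fitted at a log2 fold change of 2.10 (standard error 0.72).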
